A study of Mus musculus with 12 samples.

Results

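The granins and the enzymes that cut prohormones form the core of the regulated secretory pathway, and 9 of their genes are described here: Scg2, Scg3, Scg5, Chga, Chgb, Vgf, Pcsk1, Pcsk2 and Cpe. They were taken by symbol from a RefSeq table of mouse genes on GRCm38.p6 (mm10), where all 9 were found among 21523 protein-coding genes. A c-Fos peak was linked to a gene when its midpoint lay inside the gene or within 100 kb of it. By this rule 10 of 3294 peaks were linked to 5 of the 9 genes: Scg2 and Cpe with 3 peaks each, Pcsk2 with 2, and Chgb and Vgf with 1 each. Scg3, Scg5, Chga and Pcsk1 had none. Among all protein-coding genes, 4694 (21.8%) had a linked peak.

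Granins are acidic proteins that condense in the lumen of dense core vesicles, the organelles that store neuropeptides and growth factors until a neuron fires strongly. Several are themselves prohormones. Prohormone convertases cut them and other precursors after pairs of basic residues, and a carboxypeptidase then trims the basic residues from the new ends. In hippocampal neurons these vesicles carry, among others, brain-derived neurotrophic factor and neuropeptides, and some granin genes are known to be induced by neuronal activity.

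Binding was profiled with CUT&RUN, in which an antibody tethers a nuclease that releases the DNA around a bound protein for sequencing. The mice were C57BL/6, aged 3 to 4 weeks, and all had the genotype CaMK2a-Cre/+; LSL-Sun1-GFP/+, so that Cre made in excitatory forebrain neurons switched on a green nuclear envelope tag. Nuclei from the CA1 field of the hippocampus were sorted on this tag, and 50000 of them went into a reaction. With 3 replicates in each of 4 groups there were 12 samples: c-Fos antibody after kainic acid, a glutamate receptor agonist that provokes seizures; rabbit IgG after kainic acid; c-Fos antibody after PBS; and rabbit IgG after PBS. The sample labels give 2 to 3 h after injection and the series description 2 h. The number of animals behind a replicate was not stated. Only positions were measured values here, those of peaks named as replicated, c-Fos over IgG, after kainic acid. This list has neither a score nor a value per library, so depth is unknown, no spread between replicates can be given, and every count below is a description of 1 list. Data from the PBS samples were not used here, so no comparison with PBS was made. Peak positions carry no measure of expression, so the cell type of the sorted nuclei was not checked against markers.

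Scg2 encodes secretogranin II, the precursor of the peptide secretoneurin, and it was the only gene of the 7 with a RefSeq promoter entry whose transcript start lay inside a peak. Of all 17274 protein-coding genes with such an entry, 198 (1.15%) had a start inside a peak. The promoters are shown first because this peak covers that of Scg2 whole. The 250 bases upstream of the Scg2 start (mm10, chr1:79440027-79440276, minus strand, from RefSeq, GRCm38.p6) are given 5′ to 3′ in the direction of transcription. Capitals mark the full cAMP response element, TGACGTCA, a palindrome bound by CREB and related factors.

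Scg2: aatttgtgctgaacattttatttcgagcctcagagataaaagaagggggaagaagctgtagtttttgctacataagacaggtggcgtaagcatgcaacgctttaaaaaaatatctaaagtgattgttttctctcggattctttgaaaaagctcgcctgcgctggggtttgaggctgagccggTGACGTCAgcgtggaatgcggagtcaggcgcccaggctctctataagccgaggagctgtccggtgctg

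The element ran from 68 to 61 bases upstream of the start, 58.5 bp from the midpoint of the peak. The motif of AP-1, the dimer that c-Fos forms with Jun proteins, was searched as TGANTCA on both strands in the 300 bases from 250 before to 50 after each start. No match was found in any of the 7 promoters, and 7.81% of all 32851 promoters in the RefSeq table held one. At such a share, 7 promoters are too few to show a lack of the motif. The stricter TGACTCA, with TGAGTCA on the other strand, likewise had no match in the 7 promoters and was held by 5.20% of all. The promoter entry spans 18.9% of the Scg2 peak, so most of the sequence under this peak was not searched.

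The full cAMP response element was found in 3 of the 7 promoters, those of Scg2, Chgb and Pcsk1, and in 1.79% of all promoters. All promoters are the 32851 entries of 27025 genes, of which 17274 are among the protein-coding genes used here. The 7 are all protein-coding, so the sets are unlike. In all 3 it lay at a like distance from the start, beginning 68, 72 and 78 bases upstream. Across the table, 182 of 32851 promoters (0.554%) held the element beginning 50 to 100 bases upstream. They made up 31.0% of the 588 promoters with the element, so this position is common among promoters that hold it. The windows of the 3 genes are shown for comparison, with the element in capitals (Scg2, chr1:79440076-79440105, minus strand; Chgb, chr2:132781559-132781588, plus strand; Pcsk1, chr13:75089768-75089797, plus strand).

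Scg2: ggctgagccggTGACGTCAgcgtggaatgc

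Chgb: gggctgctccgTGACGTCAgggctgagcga

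Pcsk1: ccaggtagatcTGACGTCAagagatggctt

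The starts of Chgb and Pcsk1 carried the same 8 letters as Scg2 without a peak over them, and the bases around the element differed among the 3. The other 4 promoters held only its core, TGACG, which reads CGTCA on the opposite strand and is contained in every full element. This search was added after the sequences had been seen, and 20.8% of all promoters held the core. It lay 44 bases upstream of the start in Chga, 30 in Scg3 and 34 in Pcsk2, counted from its first base. In Scg5 the match upstream began at 175 bases, and a pair of further matches lay just after the start. Among the 317 promoters whose start lay inside a peak, 7.89% held the full element, 18.3% held TGANTCA and 43.5% held the core. Scg2 is among these 317.

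**Figure D1:**
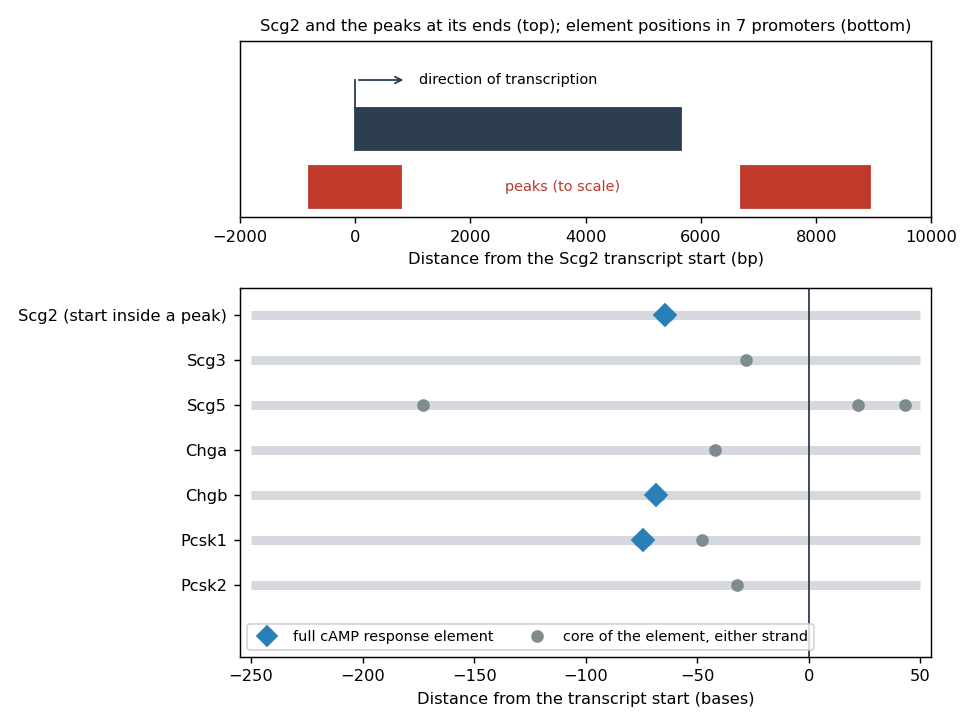
Top: Scg2 drawn in the direction of transcription, in bp from its start, with the peaks at its ends to scale (red). Bottom: matches to the full cAMP response element (blue diamonds) and to its core (grey dots) in the 7 promoters with a RefSeq entry, in bases from the start; the full element sits 61 to 78 bases upstream in Scg2, Chgb and Pcsk1.

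Among the granin genes, Scg2 was the one with peaks directly at the gene. It spans 5.66 kb on the minus strand of chromosome 1 (79434366 to 79440026) and had a peak at each end. The peak over the start was 1585 bp wide (79439240 to 79440824), reached 798 bp upstream of the start and 787 bp into the gene, and had its midpoint 6 bp upstream. The peak beyond the other end was 2233 bp wide (79431091 to 79433323). Its midpoint lay 2.16 kb past the transcript end, and 1042 bp of sequence separated its edge from the gene. Start and end of this short gene were thus both flanked, with 7.83 kb between the midpoints.

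A distal peak, 3281 bp wide (79334336 to 79337616), lay 98.4 kb beyond the end of Scg2, just inside the 100 kb limit. It was the widest of the 10 peaks, and 2.00% of all peaks were at least as wide. Just outside the limit were 4 further peaks, at 119.5 and 141.5 kb on the side of the start and at 122.1 and 143.1 kb beyond the end. Of the 7 peaks within 200 kb of Scg2, 5 had Scg2 as their nearest protein-coding gene. The other 2 were nearest to Ap1s3, which encodes a subunit of a clathrin adaptor. No other protein-coding gene lay within 100 kb of Scg2, the nearest being Ap1s3 at 166.8 kb on the side of the start and Kcne4, a potassium channel subunit gene, at 614.3 kb beyond the end.

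A peak close to both ends is a rare arrangement in this list. Different peaks within 5 kb of each of both ends were found at 17 of 21523 protein-coding genes (0.079%), Scg2 included. Only the 1204 genes (5.59%) with 2 or more linked peaks could meet this rule. Ordered by the summed distance of the midpoints, which is the measure of likeness used here over this 1 list, Scg2 had rank 3, with 2159 and 6 bp. The smaller sums were those of Elmo2, a regulator of cell migration (826 and 143.5 bp from its ends), and Foxd1, a forkhead transcription factor (344 and 770.5 bp). Closest to the sum of Scg2 was that of Ensa, an inhibitor of protein phosphatase 2A, with peaks 113.5 and 2313 bp from its ends. Next in the order, Gm36375 had peaks at 885.5 and 1865 bp, and Zfp219, a zinc finger protein, at 1762.5 and 1203.5 bp.

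Chgb encodes chromogranin B, an abundant calcium-binding protein of the granule matrix. The gene spans 13.4 kb on the plus strand of chromosome 2 (132781642 to 132795079), and its single linked peak lay 39.3 kb upstream of the start (132741736 to 132743033, 1298 bp). The midpoint of that peak was inside another gene, Shld1, whose product acts in DNA double-strand break repair. The start of Chgb was nevertheless closer to it than any of the 3 annotated starts of Shld1, which lay 51.8 to 55.5 kb away. Which gene, if any, the peak acts on was not tested. The next peak out was 167.8 kb from Chgb.

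Vgf, the precursor of a family of neuropeptides and a gene induced by nerve growth factor, spans 8.05 kb on chromosome 5 (137025301 to 137033351). It had 1 peak, 69.5 kb away at higher coordinates (137102010 to 137103697, 1688 bp). It was the most crowded locus, with 7 other protein-coding genes within 100 kb of Vgf. Of the protein-coding genes around the peak, 5 were closer to it than Vgf, and Trim56, an innate immunity gene, was nearest at 8.43 kb. The next peak on the chromosome was 920.6 kb from this one.

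Chga encodes chromogranin A, a granule protein that gives rise to several peptides. It spans 10.1 kb on chromosome 12 (102554941 to 102565027), and its nearest peak lay 713.9 kb away. Scg3, whose product binds chromogranin A at the granule membrane, spans 42.6 kb on chromosome 9 (75643366 to 75685959), and its nearest peak was at 304.9 kb. For these genes the list shows no peak within 200 kb, and weaker binding below the unknown threshold of the list would not be seen. Among the granins, Scg2 therefore stood alone with a peak at the gene itself, Chgb and Vgf had distal peaks in loci shared with other genes, and Chga and Scg3 had none in reach.

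Of the 5 peaks linked to processing genes, 4 were inside the gene, and all 5 belonged to Pcsk2 and Cpe. Pcsk2 encodes prohormone convertase 2 and is by far the longest of the 9 genes, at 270.2 kb on the plus strand of chromosome 2 (143546133 to 143816284). Both of its peaks were inside it, 114.3 kb (143659897 to 143660986, 1090 bp) and 206.4 kb (143751868 to 143753245, 1378 bp) downstream of the start. They were 92.1 kb apart, and the second also lay within Pcsk2os2, a long noncoding RNA gene. By transcript start, the first peak was nearest to Pcsk2, but the second was nearest to Bfsp1, at 110.6 kb. Neither peak was near an end of Pcsk2: the closest distance to an end was 63.7 kb.

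Cpe encodes carboxypeptidase E, the enzyme that trims basic residues after the convertases have cut. The gene spans 100.6 kb on chromosome 8 (64592542 to 64693109) and held 2 peaks near its middle, 42.1 kb (64634058 to 64635261, 1204 bp) and 51.8 kb (64643260 to 64645479, 2220 bp) from the end at lower coordinates. The pair was 9.71 kb apart. A further peak, 1076 bp wide (64522295 to 64523370), lay 69.7 kb outside the gene at lower coordinates, with no other protein-coding gene within 100 kb of it. Beyond the limit, 2 peaks at 131.5 and 148.6 kb at higher coordinates lay inside Klhl2, which encodes a ubiquitin ligase adaptor.

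Pcsk1 encodes prohormone convertase 1/3, and Scg5 the protein 7B2, a chaperone and inhibitor of prohormone convertase 2. Pcsk1 spans 45.4 kb on chromosome 13 (75089420 to 75134861) and lay farthest from any peak, at 1722 kb. Its locus is sparse, with no other protein-coding gene within 100 kb. Scg5 spans 52.8 kb on chromosome 2 (113776313 to 113829091), with its nearest peak at 695.6 kb. The convertase Pcsk2 thus had peaks inside the gene, while neither its chaperone gene Scg5 nor the related convertase gene Pcsk1 had one within 200 kb. Pcsk2 is much longer, at 270.2 kb. A peak inside was found at 28.4% of protein-coding genes of 100 kb or longer and at 5.52% of all.

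**Figure D2:**
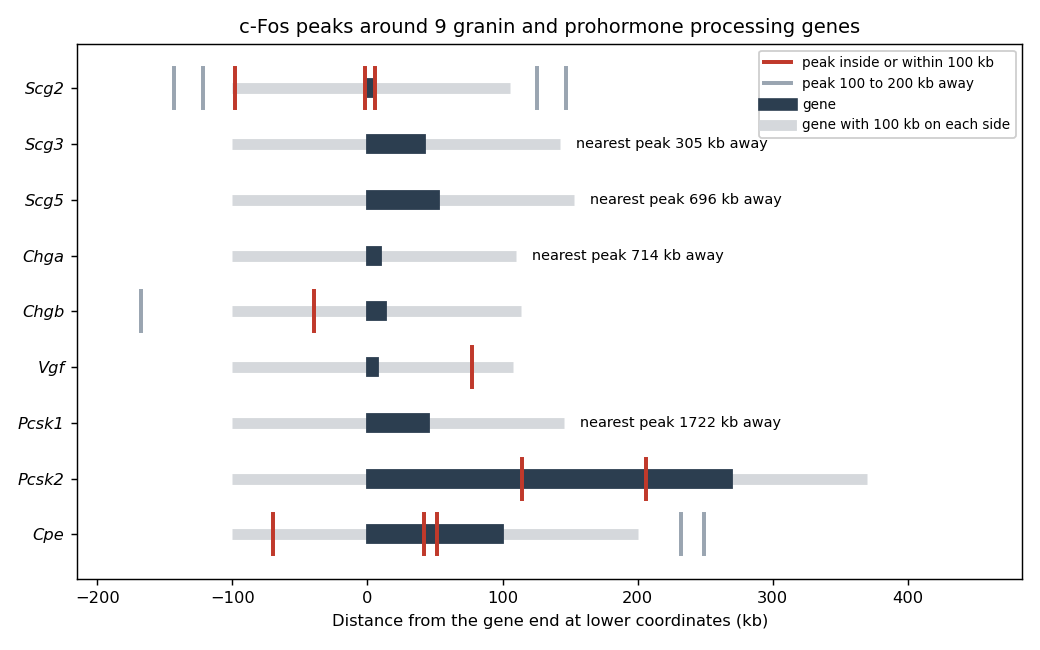
Map of the 9 genes (dark bars), each aligned at its end at lower coordinates, with the distance in kb along the axis. Red lines are midpoints of the 10 peaks inside or within 100 kb of a gene and grey lines those at 100 to 200 kb; Scg2 has a peak at each end, Pcsk2 has both of its peaks inside the gene, and Cpe has 2 of its 3 inside.

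Set beside the rest of the genome, 5 of the 9 genes (55.6%, exact Clopper-Pearson 95% interval 21.2 to 86.3) had a peak inside or within 100 kb, against 4694 of 21523 protein-coding genes (21.8%) and 20.4% of all 49214 genes of any type. The interval covers counting over 9 genes only. These genes were chosen with earlier results of these data known, so the interval is no test against the shares of all genes. Gene length bears on this count, since a longer gene has a wider window. Of the 7 genes under 100 kb, 3 had a peak (42.9%), against 19.2% of all protein-coding genes under 100 kb. Both genes of 100 kb or longer had one, as did 42.6% of all protein-coding genes of that length.

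By number of peaks, Scg2 and Cpe belonged to the 345 protein-coding genes (1.6%) with 3 or more. The mean was 1.11 peaks for the 9 genes and 0.304 for all protein-coding genes, and the median was 1 for the 9 genes and 0 for all protein-coding genes. Per length of window, the 9 genes had 4.26 peaks per Mb and all protein-coding genes 1.22. Scg2 reached 14.6 per Mb, Cpe 9.98, Vgf 4.81, Chgb 4.69 and Pcsk2 4.25.

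A peak inside the gene was found at 2 of the 9 genes, Pcsk2 and Cpe, and at 5.52% of all protein-coding genes. That share depends strongly on length: among genes of 100 kb or longer it was 28.4%, and 9.48% held 2 or more, as Pcsk2 and Cpe did. The median distance to the nearest peak was 69.5 kb over the 9 genes and 360.5 kb over all protein-coding genes, with the distance set to 0 for a midpoint inside the gene. The value for the 9 genes is that of Vgf, whose peak had 5 protein-coding genes closer to it. The next gene in order, Scg3, stood at 304.9 kb. With only the peaks at or above the median width, the median distance was 304.9 kb over the 9 genes and 715.7 kb over all protein-coding genes. The nearest peak of Chgb was then at 871.5 kb. The order among the 9 genes ran from Pcsk2 and Cpe (0) over Scg2 (6 bp), Chgb, Vgf, Scg3, Scg5 and Chga to Pcsk1.

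**Figure D3:**
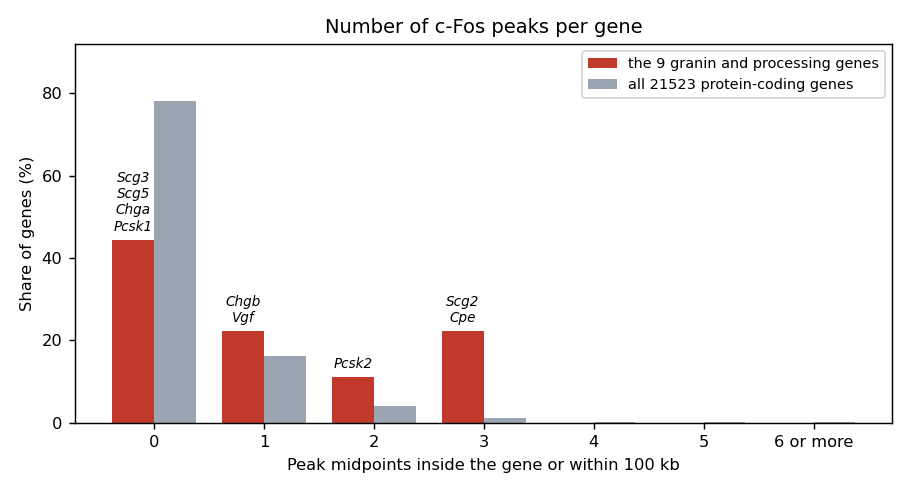
Share of genes in percent with each number of peak midpoints inside or within 100 kb, for the 9 genes (red, named above their bars) and for all 21523 protein-coding genes (grey). Scg3, Scg5, Chga and Pcsk1 had 0 peaks, and Scg2 and Cpe had 3.

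The 10 peaks also differed among themselves in width and surroundings. Their median width was 1481.5 bp (range 1076 to 3281), against 1341.5 bp for the whole list (quartiles 1097 and 1698.75), and 6 of the 10 were at or above the median of the list. All 3 peaks of Scg2 were among these, whereas Cpe had 1 wide peak, of 2220 bp inside the gene, and Pcsk2 peaks of 1090 and 1378 bp. Of all peaks, 31.5% were at least as wide as the one over the Scg2 start and 9.50% as wide as the one beyond its end. For the wide Cpe peak the share was 9.71%. Width is not a measure of binding strength.

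Another peak within 12.5 kb was found for 4 of the 10 peaks (40.0%), the pair at the ends of Scg2 and the pair inside Cpe, and for 455 of all 3294 peaks (13.8%). The linked gene was the nearest protein-coding gene for 8 of the 10. The exceptions were the peaks of Chgb and Vgf. For 5 peaks it was the only protein-coding gene within 100 kb: all 3 of Scg2, 1 of Pcsk2 and 1 of Cpe. In the whole list, 637 peaks (19.3%) had no protein-coding gene at all at that distance. A linked peak cannot be among these, and the share of all peaks with exactly 1 such gene was not counted.

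**Figure D4:**
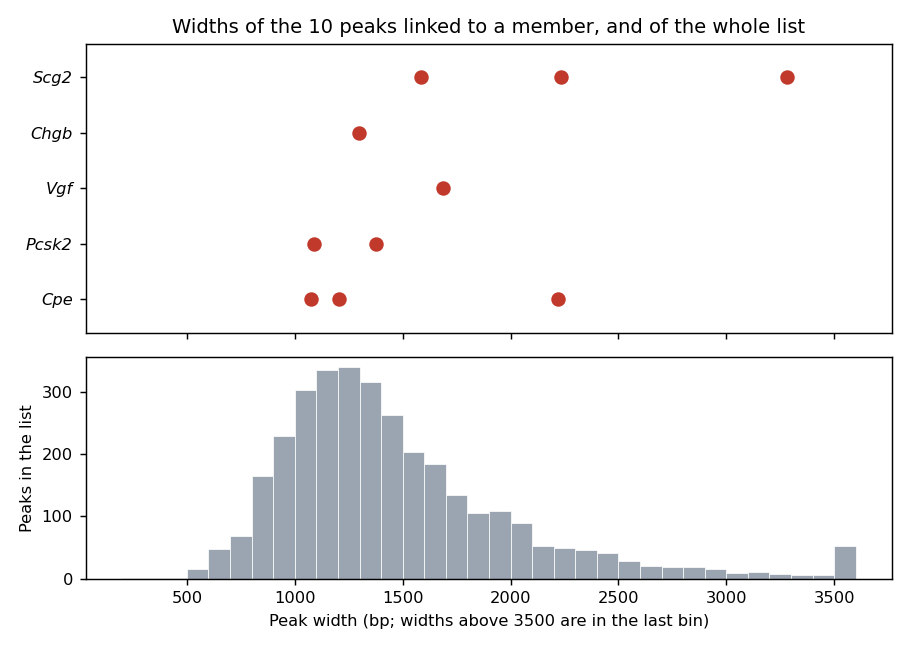
Top: widths in bp of the 10 linked peaks (red dots, a row per gene). Bottom: widths of all 3294 peaks in bins of 100 bp, with those above 3500 bp in the last bin; the Scg2 peaks, at 1585, 2233 and 3281 bp, all lie above the list median of 1341.5 bp.

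The rest of the pathway was read from 4 lists of 46 genes, of which 15 (32.6%, interval 19.5 to 48.0) had a peak inside or within 100 kb. The share of all protein-coding genes, 21.8%, lies inside this interval, and it was 42.6% for those of 100 kb or longer. A peak inside the gene was found at 4 of the 46, all long genes: Pam (274.8 kb), Pcsk6 (188.3 kb), Ptprn2 (792.5 kb) and Cadps2 (578.4 kb). Among the other processing enzymes and inhibitors, 4 of 11 had one (36.4%). Pam, which amidates the ends of peptides, had 4 peaks, 3 of them inside the gene, and Pcsk6, a convertase of the constitutive pathway, had 1 inside. Cpm, a cell surface carboxypeptidase, had its nearest peak at 25.1 kb, and Furin, the convertase of the Golgi, at 65.0 kb.

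Of the genes for vesicle biogenesis and membrane proteins, 3 of 11 (27.3%) had a peak. Ptprn2, a phosphatase-like membrane protein of dense core vesicles, held 2 inside the gene, Rab2a, a small GTPase of vesicle traffic, had 1 at 20.0 kb, and Pick1, a membrane-bending protein, had 1 at 98.0 kb. For transport and release the count was 4 of 12 (33.3%). Cadps2, a priming factor of dense core vesicles, held 2 peaks inside, Syt7, a calcium sensor, had its nearest at 6.89 kb, Syt4 at 20.4 kb, and Snap25, a membrane fusion protein, at 92.5 kb. The related priming factor gene Cadps had its nearest peak at 199.7 kb.

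Of the precursors that these enzymes process, 4 of 12 (33.3%) had a peak. Bdnf had 3, the nearest 266.5 bp outside the gene, and Sst, encoding somatostatin, had 3, the nearest at 4.35 kb. Crh, for corticotropin-releasing hormone, had 1 at 63.3 kb, and Cartpt 1 at 68.1 kb. Penk, Pdyn, Npy, Cck, Tac1, Vip, Adcyap1 and Pomc had none. Scg2 and Bdnf were the genes of these 5 lists with a midpoint outside the gene but under 1 kb from it. The share with a peak was higher for the 9 genes than for each other list at 10, 50 and 100 kb. With each peak given to its nearest protein-coding gene alone, the 9 genes and the peptide precursors stood level at 33.3% (3 of 9 and 4 of 12), beside 11 of the 46 other genes in all. At 200 kb the 9 genes stood at 55.6%, beside 54.5% for the other processing genes and 34.4% for all protein-coding genes. The genes for vesicle biogenesis and membrane proteins then stood at 54.5%, those for transport and release at 50.0% and the peptide precursors at 41.7%. These differences were not tested.

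**Figure D5:**
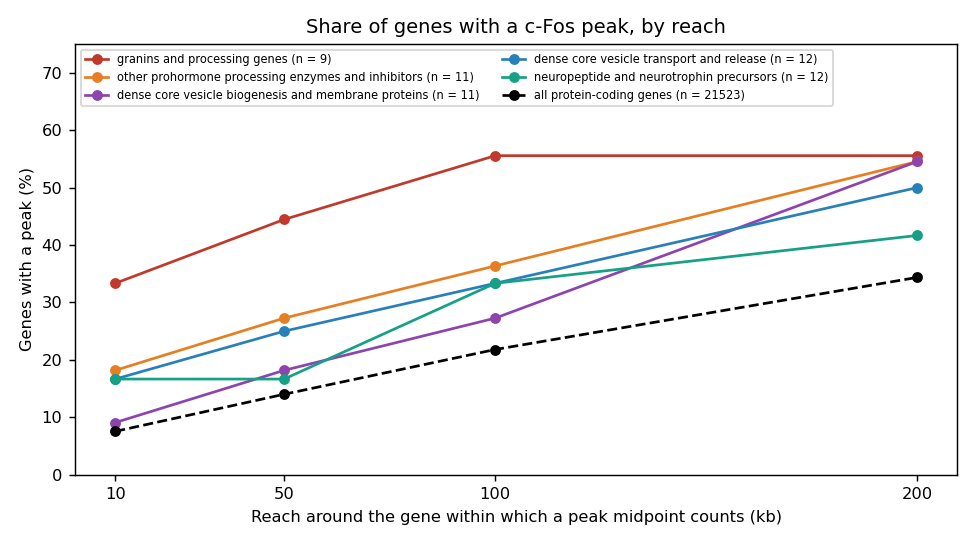
Percentage of genes with a peak midpoint inside or within 10, 50, 100 or 200 kb, for the 9 genes (red), 4 other lists of the secretory pathway and all protein-coding genes (dashed). The 9 genes stand at 33.3% at 10 kb and at 55.6% at 100 and 200 kb, and all protein-coding genes at 7.55% at 10 kb and 34.4% at 200 kb.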

How the data were processed

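CUT&RUN peaks of c-Fos over IgG after kainic acid were used, in CaMK2a-lineage CA1 nuclei. The submitters' processing notes name SEACR 1.1, bedtools 2.27.1, Bowtie2 2.2.9 and Trimmomatic 0.36, and the builds mm10 and sacCer3. Roles, settings, the peak threshold and how replicates were combined were not given in the sources used here. As deposited, the list has 3 columns (chromosome, start, end) and no score, and stands for the whole group. Of 3295 peaks, 3294 on 20 chromosomes were kept. Positions are 1-based.

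Genes starting below 3 Mb on these chromosomes (340, of which 108 protein-coding) were dropped, because such positions look like those of scaffolds. Strand and promoters came from RefSeq (32851 promoters of 27025 genes; 7 members matched, Vgf and Cpe did not). Vgf and Cpe positions are therefore given by coordinate side. Protein sequences and a genome were not used here.

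The members and lists were chosen with earlier results of these data known. All 9 members are named, and from each other list up to 5 genes with a peak, nearest first; Cadps, the peptide precursors without a peak and the locus neighbours that are not the nearest gene of a linked peak were named after their values were seen. No test was run, because there is 1 list without replicate values. The link was tested on simulated peaks. Python 3.11.15, pandas 2.3.3 and scipy 1.17.1 were used.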

Additional observations from a re-analysis of the deposited data

How the results depend on the processing

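No paired analysis was possible because the deposited positions are not split by replicate, and none could be left out; the planned description of protein sequences was not run. With 10 kb around the gene, 3 members had a peak (6 peaks, median 0 per member), as did 7 of the 46 other genes and 7.55% of all protein-coding genes. With 50 kb, 4 members had a peak (7 peaks, median 0 per member), as did 10 of the 46 other genes and 14.0% of all genes. With 200 kb, 17 peaks were linked to 5 members, as many as with 100 kb, and 23 of the other genes and 34.4% of all genes had one. These changes follow from the window. With the wider peaks only (at or above the median width) 6 peaks were linked to 4 members (median 0 per member, median nearest distance 305 kb). Of the other genes 8 had a peak, and of all genes 12.6%. With each peak given to its nearest protein-coding gene only, 3 members kept a peak (Scg2, Pcsk2 and Cpe; median 0), against 8.63% of all genes. Any base in place of the midpoint, distance from gene ends, merging and leaving out peaks over 5 kb kept 5 members and 9 or 10 peaks. Scg2 had 2 to 7 peaks and Cpe 1 to 5 over 9 alternatives, and Scg3, Scg5, Chga and Pcsk1 had 0 in all 9. In place of 0 of 7 promoters with TGANTCA, 3 held the full cAMP response element and 7 its core TGACG, which was added after seeing the data. Peaks below the unknown threshold are missing from every count.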
